A study of Mus musculus with 36 samples.

Results

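The genes described here encode the collagens, the laminins, the matrix metalloproteinases (Mmp), the Adamts proteases, the tissue inhibitors of metalloproteinases (Timp) and a small group of matrix glycoproteins and proteoglycans. They were followed in mouse cortical astrocyte cultures exposed to dexamethasone, a synthetic glucocorticoid. The members were chosen by gene name and selected on their mean intensity. Of 101 matching symbols on the array, each represented by its brightest probe, 77 had a mean intensity over all 36 arrays of at least 92 and 24 did not. These 77 are part of 20633 genes tested in all. Just inside that threshold lay Mmp12 with a mean intensity of 95.2 and Lama3 with 95.6, and just outside it Mmp3 with 89.3 and Col14a1 with 88.2. All 77 members lay above background on at least 2 arrays, and 61 of them did so on all 36.

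Total RNA came from primary cultures of C57B/6 pups aged P0 to P2; the samples are named cortical astrocyte cultures, while the growth protocol gives cortex or hippocampus. All cultures grew in serum-containing medium to near confluence. Dexamethasone was added at about 100 nM, and vehicle alone to the matching cultures. RNA was taken at 8 times: early (0.25 h and 1 h), from 2 h through 4 h to 6 h, and late (12 h, then 18 h and lastly 24 h). Each treatment had 3 arrays at 2 h and at 4 h and 2 arrays at every other time, 18 dexamethasone and 18 vehicle arrays in all. The labels name no transgene and do not say how many pups went into a culture or whether replicates came from separate cultures, so that the p-values below reflect array-to-array spread that could be technical.

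Collagens are the structural proteins of the extracellular matrix. Collagens of the fibrillar group form fibres, type IV collagen forms the meshwork of basement membranes together with laminins, and the smaller collagens decorate or link these networks. In the brain, the endfeet of astrocytes contact a basement membrane around blood vessels and below the pia, to which astrocytes themselves contribute laminins and type IV collagen. Metalloproteinases and Adamts proteases cut matrix proteins outside the cell, and the Timp proteins block these enzymes. Glucocorticoids act through a receptor that enters the nucleus and changes transcription, in part by binding DNA at paired half-sites.

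Glucocorticoid receptor targets rose in these arrays: over the 8 times the log2 difference, dexamethasone minus vehicle, averaged 3.22 for Fkbp5, 2.14 for Tsc22d3 and 1.86 for Per1. Of 10 astrocyte markers, 8 lay above background on all 36 arrays, among them Slc1a3, Gfap and Aqp4, which did not pass the test on average; Gjb6 (3.38), Aldoc (0.75) and Slc1a2 (0.27) rose and Gja1 (-0.24) fell. Of 13 fibroblast and meningeal markers outside the members, 9 lay above background on all 36 arrays, among them Pdgfra and Igf2. Of these markers Ptgds rose on average (log2 0.86) and no other passed. The summed intensity of the list was 24248 to 45746 on the 18 dexamethasone arrays and 25129 to 40849 on the 18 vehicle arrays. Most of it came from Igfbp2, with a mean intensity of 25532, against 3015 for Thy1, 992 for Pdgfra and 825 for Igf2. These sums were lower with dexamethasone without overlap at 3 times: 34454 and 33709 with dexamethasone against 38316 and 36862 with vehicle at 6 h, 27017 and 27885 with dexamethasone against 32615 and 31256 with vehicle at 18 h, and 28100 and 30813 with dexamethasone against 30945 and 35178 with vehicle at 24 h. Of 11 microglia markers, 9 lay above background on all arrays. Their summed intensity was 9998 to 13477 on the dexamethasone arrays and 9770 to 15913 on the vehicle arrays of 0.25 h and 1 h. At the later times it was 1757 to 3813 on dexamethasone arrays and 1824 to 3952 on vehicle arrays, except vehicle 12 h replicate 1 with 9738; Cx3cr1 (-0.54) and Aif1 (-0.51) fell on average and the other markers of that list did not pass. Only 1 of 8 endothelial markers, Flt1, was above background throughout, and it rose on average (0.39). Of 8 pericyte and smooth muscle markers 3 were above background throughout: Acta2, Tagln and Pdgfrb, with mean intensities of 39112, 4853 and 509. Rgs5, a pericyte marker, was below it on every array. The summed intensity of that list was 40370 to 52652 on dexamethasone arrays and 37476 to 52657 on vehicle arrays, and none of its markers passed on average. Of 8 oligodendrocyte lineage markers 4 were above background throughout and none passed on average. The brightest was Olig1, with a mean intensity of 29504, against 1131 for Cnp. The sum of that list was 24496 to 37886 on dexamethasone arrays and 26671 to 37150 on vehicle arrays. Both ependyma markers with a probe fell on average (Foxj1 -0.34, Rsph1 -0.23). From 2 h to 24 h their sum overlapped, with 2191 to 4158 on dexamethasone arrays and 2881 to 5555 on vehicle arrays. The 5555 was that of vehicle 12 h replicate 1, without which the highest vehicle sum of these times was 4509. At 12, 18 and 24 h the sum was 2191 to 2918 on dexamethasone arrays and 3250 to 5555 on vehicle arrays. The part of these cell types in the members' differences at the same times was not tested. In such bulk RNA, fewer cells of a type and less RNA per cell cannot be told apart.

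Promoter sequence is shown for Adamts1, Mmp11, Timp4 and the Col4a3 and Col4a4 pair, because these members differ in direction and in the times at which they passed the test below: Adamts1 at 4 h upward, Mmp11 at 4 h and 6 h downward, and Timp4 and the collagen pair at 12, 18 and 24 h upward. The sequences are RefSeq's, from GRCm38.p6, on the strand of the gene. Capitals mark the glucocorticoid receptor half-site AGAACA and the GC box GGGCGG, on either strand; the marked motifs do not overlap.
Adamts1, the 250 bases before its start, chr16:85803114-85803363 on the minus strand: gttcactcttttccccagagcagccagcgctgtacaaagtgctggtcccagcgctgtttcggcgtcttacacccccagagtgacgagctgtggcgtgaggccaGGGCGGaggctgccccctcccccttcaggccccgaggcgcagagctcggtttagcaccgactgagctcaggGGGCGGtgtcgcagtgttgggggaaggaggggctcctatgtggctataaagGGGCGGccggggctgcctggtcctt
Mmp11, the 250 bases before its start, chr10:75932503-75932752 on the minus strand: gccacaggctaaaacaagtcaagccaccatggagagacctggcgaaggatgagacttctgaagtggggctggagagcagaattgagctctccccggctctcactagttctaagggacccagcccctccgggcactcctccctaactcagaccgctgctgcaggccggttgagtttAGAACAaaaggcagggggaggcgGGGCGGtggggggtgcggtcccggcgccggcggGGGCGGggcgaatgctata
Timp4, the 250 bases before its start, chr6:115252206-115252455 on the minus strand: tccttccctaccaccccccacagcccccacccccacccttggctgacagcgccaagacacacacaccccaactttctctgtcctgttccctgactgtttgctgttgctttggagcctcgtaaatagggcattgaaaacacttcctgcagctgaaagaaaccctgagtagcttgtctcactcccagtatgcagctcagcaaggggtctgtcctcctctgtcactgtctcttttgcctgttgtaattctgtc
Col4a4, the 71 bases between its start and the Col4a3 start, chr1:82586850-82586920 on the minus strand: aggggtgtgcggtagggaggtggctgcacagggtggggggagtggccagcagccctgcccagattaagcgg

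Col4a4 and Col4a3 lie head to head on chromosome 1, with only those 71 bases between the start used for the Col4a4 window and the annotated start of Col4a3 (the annotated span of Col4a4 reaches further upstream and overlaps Col4a3). Col4a1 and Col4a2 form another divergent pair on chromosome 8, with starts 21 bases apart on opposite strands. Timp4 lies within the span of Syn2. The half-site stood 75 bases before the start of Mmp11, and this window also held 2 GC boxes; the Adamts1 window held 3 GC boxes and the Timp4 window neither motif. Of the 18 members that passed any test below, 13 had a promoter window in the RefSeq table; AGAACA or TGTTCT stood in the 250 bases before the start in 1 of these 13, in 7 of 52 members with a window and in 16.1% of all 32851 windows. The GC box (GGGCGG or CCGCCC) stood in 8 of the 13, 35 of the 52 and 32.7% of all windows. For the CCAAT box (CCAAT or ATTGG) these were 4, 16 and 33.8%, and for the TATA box (TATAAA or TTTATA) 2, 5 and 12.4%. These matches describe letters in a window and are not evidence of binding.

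Averaged over the 8 times, 11 of the 77 members rose and 6 fell with dexamethasone, at a limma adjusted p under 0.05 over all 20633 genes. The 11 are 14.3% of the members, where 5.15% of all genes tested were higher; the 6 are 7.79% of them, where 6.64% of all genes were lower. The median difference was -0.017 for the members and -0.009 for all genes. The risers by size were Col4a3, Timp4, Ogn, Adamts1, Col4a4, Timp3, Adamts2, Adamts9, Col4a1, Col5a3 and Mmp16, and the fallers Mmp11, Col22a1, Col16a1, Col18a1, Adamts4 and Lama3. By role, 3 of 7 basement membrane collagens rose and 1 fell, 1 of 10 fibrillar collagens rose, 2 of 16 other collagens fell, 1 of 8 laminins fell, 1 of 3 small leucine-rich proteoglycans rose, and none of 3 other glycoproteins passed. Among the enzymes 3 of 14 Adamts proteases rose and 1 fell, 1 of 12 Mmp rose and 1 fell, and 2 of 4 Timp rose. Of the 60 members that did not pass, 54 had a 95% interval within 0.5 log2 units of 0 (1.41-fold), so larger average differences were outside the interval for these and were not resolved for the other 6. Without the 0.25 h and 1 h arrays, whose microglia marker sums stood apart, 15 members rose and 8 fell, where 15.8% of all genes passed.

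**Figure D1:**
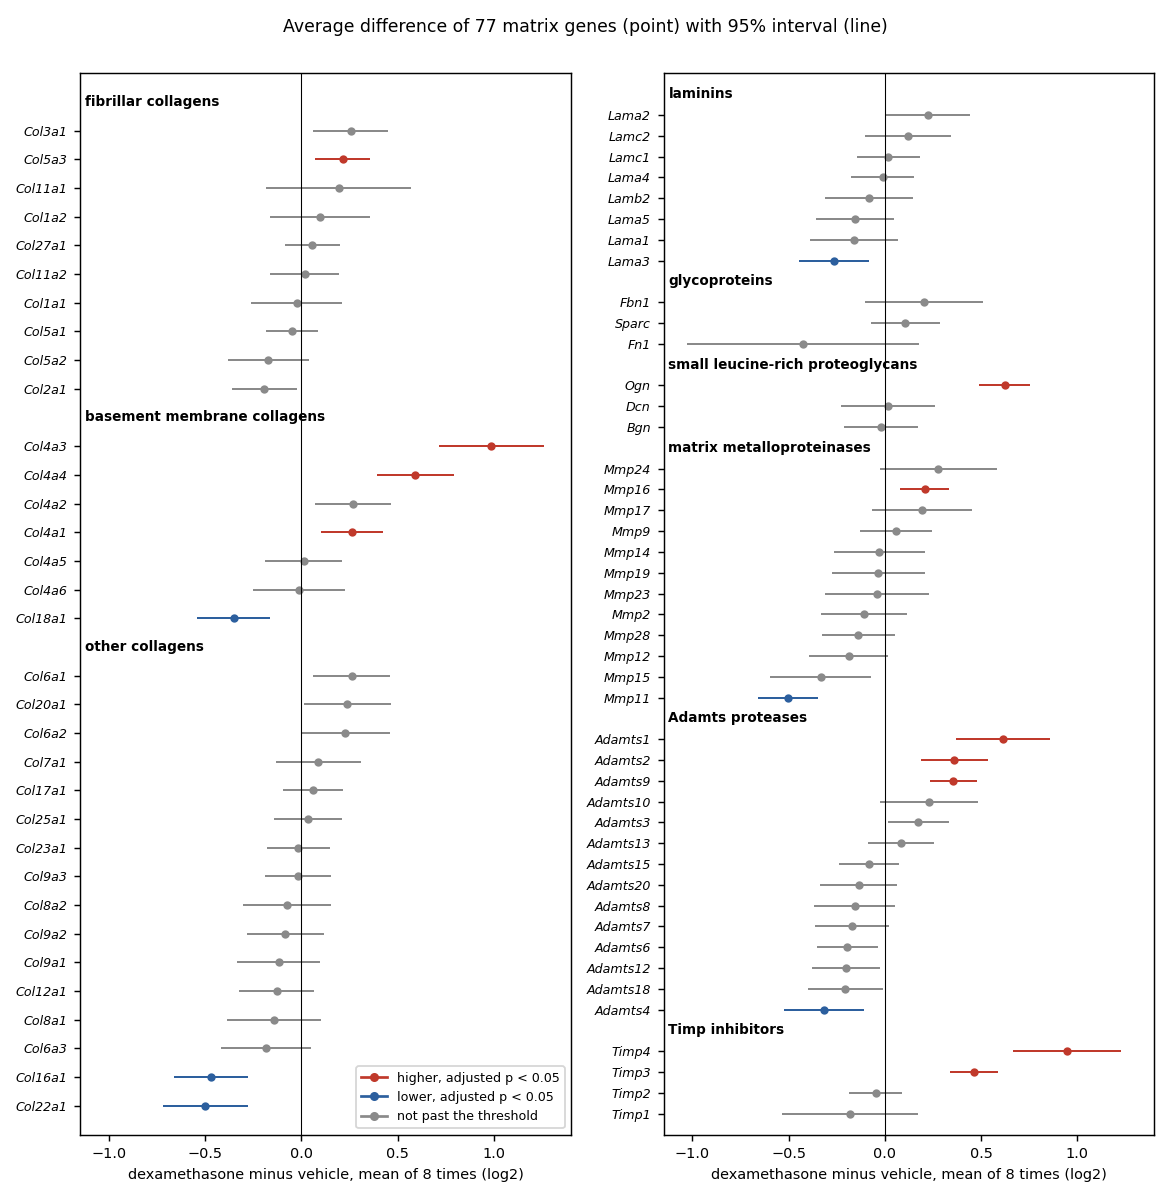
Average difference, dexamethasone minus vehicle over the 8 times (log2, x axis), for the 77 members grouped by role (y axis); points are limma estimates from 18 arrays per treatment and lines their 95% intervals. Red marks the 11 members that rose and blue the 6 that fell at an adjusted p under 0.05; Col4a3, Timp4, Ogn, Adamts1 and Col4a4 stand furthest to the right and Mmp11, Col22a1 and Col16a1 furthest to the left among those that passed, and the interval of Fn1 is the widest.

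Among basement membrane collagens the alpha 3 and alpha 4 chains of type IV collagen rose, late. Col4a3 and Col4a4 encode chains that assemble together with the alpha 5 chain in specialised basement membranes such as that of the kidney glomerulus. Col4a3 had log2 intensities of 9.58 and 9.86 on the dexamethasone arrays of 12 h, against 7.61 and 6.44 on the vehicle arrays. At 18 h they were 9.94 and 10.28 with dexamethasone and 7.35 and 8.30 with vehicle, and at 24 h 9.80 and 9.74 with dexamethasone and 7.91 and 7.87 with vehicle. The treatments did not overlap at any of these times, nor at 4 h and 6 h, where the dexamethasone arrays lay above vehicle by less. Here and below, arrays that lie apart with 2 or 3 per group are a description and not a test. At 18 h the treatments were also apart for members that did not pass on average, among them Bgn, Timp2 and Mmp9. The share of all genes that lay apart was not counted. The differences for Col4a3 were 2.70, 2.29 and 1.88 at 12, 18 and 24 h (SE 0.38 each, adjusted p = 3.8e-05, 0.00033 and 0.0027), or 6.49-fold, 4.88-fold and 3.68-fold, and 0.99 ± 0.13 (SE) on average (adjusted p = 3.6e-06).

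Col4a4 also passed at 12, 18 and 24 h. Its log2 intensities at 18 h were 10.53 and 10.64 with dexamethasone and 8.97 and 8.88 with vehicle, a difference of 1.66 (SE 0.28, adjusted p = 0.00033). At 12 h they were 10.27 and 9.27 with dexamethasone and 8.29 and 9.09 with vehicle, and at 24 h 9.62 and 10.23 with dexamethasone and 8.72 and 8.77 with vehicle, differences of 1.08 and 1.18. The 12 h difference of Col4a4 was 0.58 without dexamethasone replicate 1 and 0.68 without vehicle replicate 1, and its call ended in both cases. Its 24 h call ended without dexamethasone replicate 2 (0.88) and without either vehicle array (1.16 and 1.21). Up to 2 h the treatments overlapped for both chains.

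The more widespread alpha 1 and alpha 2 chains, which form the common type IV collagen network, showed small differences. Col4a1 ran from 12.17 through a median of 12.97 to 13.68 over the 18 dexamethasone arrays and from 12.22 through 12.72 to 13.35 over the 18 vehicle arrays, an average difference of 0.26 (SE 0.08, adjusted p = 0.023). That call ended without dexamethasone 0.25 h replicate 1, dexamethasone 1 h replicate 2 or vehicle 24 h replicate 1 (differences 0.23 to 0.24), and without the 12 h arrays. Col4a2 had an average difference of the same size, 0.27 (95% interval 0.07 to 0.46), with an adjusted p of 0.068, and 0.0015 with the replicate number as a block. Their differences were 0.55 and 0.58 at 6 h and 0.05 and 0.04 at 24 h. The X-linked chains Col4a5 and Col4a6 had average differences of 0.01 (95% interval -0.19 to 0.21) and -0.01 (-0.25 to 0.22).

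Col18a1, whose product carries heparan sulfate chains and yields the fragment endostatin, fell on average and passed singly at 18 h and 24 h. It had 12.10 and 12.11 on the dexamethasone arrays of 18 h against 12.98 and 13.08 on vehicle arrays, and 12.12 and 11.81 with dexamethasone at 24 h against 13.00 and 12.79 with vehicle. The differences were -0.93 at both times (adjusted p = 0.048 and 0.044), and -0.35 on average (SE 0.09, adjusted p = 0.0085). Both single-time calls were marginal: they ended without any one of 28 and 24 arrays. At 12 h vehicle replicate 1 stood at 11.92 and vehicle replicate 2 at 13.10, so that the treatments overlapped; the dexamethasone arrays also lay below vehicle at 1 h and 6 h, by 0.18 and 0.10, and the late minus early difference (-0.61) did not pass (adjusted p = 0.098).

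Outside the basement membrane, the collagens that passed without the replicate block were 2 fallers that belong to the fibril-associated type and 1 riser of the fibrillar type. Col22a1, found at tissue junctions such as that of muscle and tendon, had 8.74 and 7.71 on the dexamethasone arrays of 12 h, 8.07 and 8.03 at 18 h and 7.73 and 8.59 at 24 h. On vehicle arrays it had 10.09 and 9.26 at 12 h, 9.52 and 9.37 at 18 h and 9.49 and 9.51 at 24 h. The treatments were apart at these times and overlapped at every earlier one. The differences of Col22a1 were -1.45, -1.39 and -1.34 (SE 0.31 each, adjusted p = 0.0038, 0.0064 and 0.0083), and -0.50 on average (adjusted p = 0.0013). Its 12 h call ended without dexamethasone replicate 2 (-0.93) or vehicle replicate 1 (-1.03), the 18 h call without either dexamethasone array (-1.42 and -1.37) or vehicle replicate 1 (-1.32), and the 24 h call without dexamethasone replicate 1 (-0.92) or either vehicle array (-1.35 and -1.34).

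Col16a1, another minor collagen, fell by 0.47 on the log2 scale on average (SE 0.09, adjusted p = 0.0006). It had 10.58 and 10.78 with dexamethasone at 6 h against 11.38 and 11.26 with vehicle, and 9.33 and 9.15 with dexamethasone at 18 h against 10.11 and 10.32 with vehicle. The treatments did not overlap at 6, 12, 18 or 24 h. Calls were made at 12 h (-0.94, adjusted p = 0.037) and 18 h (-0.98, adjusted p = 0.038). The 12 h difference of Col16a1 was -0.40 without vehicle replicate 1 and -1.49 without vehicle replicate 2; that call ended without vehicle replicate 1 or either dexamethasone array (-0.95 and -0.93), and the 18 h call without any of its 4 arrays (-0.87 to -1.08). Among the fibrillar collagens Col5a3, a chain of type V collagen, rose by 0.21 on average (SE 0.07, adjusted p = 0.035), a call that ended without any one of 14 arrays or without the 12 h arrays. At 12 h Col5a3 had 7.44 and 6.82 with dexamethasone and 6.43 and 6.50 with vehicle, a difference of 0.66 (adjusted p = 0.046) that was 0.35 without dexamethasone replicate 1; that call ended without any one of 27 arrays. The chains of type I collagen, the main fibre collagen of connective tissue, had average differences of -0.02 (Col1a1, 95% interval -0.26 to 0.21) and 0.10 (Col1a2, -0.16 to 0.35). The extremes that did not pass without the block were Col3a1 at 0.26 (adjusted p = 0.077) and Col2a1 at -0.19 (adjusted p = 0.14) among fibrillar collagens and Col6a1 at 0.26 (adjusted p = 0.083) among the others. With the replicate number as a block Col3a1 and Col6a1 passed upward (adjusted p = 0.00996 and 0.00967), as did Col20a1 (0.24, adjusted p = 0.0042). Col2a1 passed downward with the block (adjusted p = 0.0488), as did Col6a3 (-0.185, adjusted p = 0.0425).

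No laminin rose. Lama3, the alpha chain of an epithelial laminin, was lower by 0.26 on average (adjusted p = 0.041), but it was dim: 8 of 18 dexamethasone arrays and 14 of 18 vehicle arrays lay above background. That call ended without any one of 23 arrays and under 4 other processing settings. Laminins of brain basement membranes did not pass without the block. Lama2, the main muscle and brain alpha chain, had 0.22 (95% interval 0.01 to 0.44, adjusted p = 0.21), Lamb2 -0.08 (-0.30 to 0.14), Lamc1 0.02 (-0.14 to 0.18) and Lama1 -0.16 (-0.38 to 0.06). With the block Lama2 passed upward (adjusted p = 0.043) and Lama5 downward (-0.16, adjusted p = 0.024), while Lamb2, Lamc1 and Lama1 did not pass.

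Of the glycoproteins, Fn1, which encodes fibronectin, varied widely between replicates at several times. It had 9.90 and 11.44 with dexamethasone at 0.25 h against 9.67 and 11.50 with vehicle, and 9.25, 10.56 and 11.92 with dexamethasone at 2 h against 9.58, 10.97 and 12.16 with vehicle. At 24 h the dexamethasone arrays stood at 10.88 and 8.59 and the vehicle arrays at 11.23 and 11.56. The average difference was -0.43 (SE 0.29, 95% interval -1.02 to 0.17, adjusted p = 0.47), and it was -0.27 without vehicle 1 h replicate 1 and -0.28 without dexamethasone 24 h replicate 2. Same-numbered Fn1 arrays lay close together in both treatments at 0.25 h and 2 h, and with the replicate number as a block the same difference passed (SE 0.12, adjusted p = 0.013). Sparc, a collagen-binding protein abundant in astrocytes, had 0.11 (-0.07 to 0.28), and Fbn1, which encodes the microfibril protein fibrillin, 0.20 (-0.10 to 0.50).

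Osteoglycin (Ogn), a small leucine-rich proteoglycan, was the member with the smallest adjusted p. It had 13.55 and 13.51 with dexamethasone at 6 h against 12.64 and 12.96 with vehicle. At 12 h it had 14.36 and 14.21 with dexamethasone and 12.76 and 13.36 with vehicle, at 18 h 14.65 and 14.59 with dexamethasone and 13.39 and 13.48 with vehicle, and at 24 h 14.56 and 14.31 with dexamethasone and 13.49 and 13.20 with vehicle. The treatments were apart at every time from 4 h on. The differences of Ogn were 0.73, 1.22, 1.18 and 1.09 at 6, 12, 18 and 24 h (SE 0.19 each, adjusted p = 0.032, 8.7e-05, 0.00013 and 0.00033), and 0.62 on average (SE 0.06, adjusted p = 4.1e-08). The 6 h call ended without any of the 4 arrays of that time (0.57 to 0.89). The related proteoglycans biglycan (Bgn, -0.02, 95% interval -0.21 to 0.16) and decorin (Dcn, 0.02, -0.22 to 0.26) did not pass.

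Of the enzymes, Adamts9 and Adamts1 rose within the first hours. Both cut aggregating proteoglycans such as versican and aggrecan. Adamts9 had 11.42, 11.71 and 11.62 with dexamethasone at 2 h against 10.70, 10.64 and 10.51 with vehicle, and 11.76, 11.67 and 12.01 with dexamethasone at 4 h against 10.64, 10.48 and 10.42 with vehicle. At 6 h it had 11.61 and 11.65 with dexamethasone and 10.59 and 10.81 with vehicle. The differences of Adamts9 were 0.97, 1.30 and 0.93 at 2, 4 and 6 h (SE 0.13, 0.13 and 0.16, adjusted p = 7.5e-05, 2.3e-07 and 0.001); the 6 h call ended without vehicle 6 h replicate 1 (0.82), and the 2 h call when the 2 h arrays were fitted alone. From 12 h on the order was the other way round: 10.75 and 10.63 with dexamethasone at 18 h against 10.91 and 11.02 with vehicle, with differences of -0.22, -0.28 and -0.21 at 12, 18 and 24 h that did not pass singly.

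Adamts1 had 11.00, 10.07 and 10.17 with dexamethasone at 4 h against 9.64, 8.61 and 8.57 with vehicle, a difference of 1.47 (SE 0.28, adjusted p = 0.0018) or 2.77-fold. Its arrays were also apart at 2 h, with 10.75, 11.61 and 10.97 with dexamethasone against 10.07, 10.39 and 9.86 with vehicle (difference 1.01), which passed with the replicate number as a block (adjusted p = 0.0053) and not without it. On average Adamts1 rose by 0.61 (SE 0.12, adjusted p = 0.00048). Adamts2, which cuts the amino-terminal propeptide from fibrillar procollagens, rose later: it had 7.54 and 7.86 with dexamethasone at 24 h against 6.66 and 6.93 with vehicle, a difference of 0.90 (adjusted p = 0.029), and 0.36 on average (SE 0.08, adjusted p = 0.0029). Its arrays were apart at 6, 12, 18 and 24 h; the 24 h call ended without any of the 4 arrays of that time (0.74 to 1.06). Adamts4, an aggrecanase, fell by 0.32 on average (SE 0.10, adjusted p = 0.035), with 6.25, 6.23 and 6.31 with dexamethasone at 4 h against 6.92, 7.11 and 6.94 with vehicle; the average call ended without any one of 14 arrays. Adamts12 was called at 12 h alone without the block, with 8.26 and 7.46 with dexamethasone and 8.71 and 8.80 with vehicle (-0.89, adjusted p = 0.028). The difference was -0.49 without dexamethasone 12 h replicate 2, and the call ended without that array. It also ended without either vehicle array of that time (-0.94 and -0.85). On average Adamts12 passed downward with the replicate number as a block (-0.20, adjusted p = 0.039).

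Of 12 metalloproteinases, Mmp11 fell and Mmp16 rose in the fit without the replicate block. Mmp11, or stromelysin 3, is activated inside the cell. It had 7.55, 7.34 and 7.38 with dexamethasone at 4 h against 8.58, 8.55 and 8.65 with vehicle, a difference of -1.17 (SE 0.18, adjusted p = 8.7e-05), which is 2.25-fold lower. At 6 h Mmp11 had 7.71 and 7.94 with dexamethasone and 8.80 and 9.08 with vehicle (-1.12, adjusted p = 0.0025), a call that ended without dexamethasone 6 h replicate 1 or vehicle 6 h replicate 2 (adjusted p = 0.085 and 0.09). Its arrays were apart from 2 h to 18 h and overlapped at 24 h, and the average difference was -0.50 (SE 0.07, adjusted p = 1.5e-05). Mmp16, a membrane-type enzyme, rose by 0.21 on average (SE 0.06, adjusted p = 0.020). The gelatinases, which cut denatured and type IV collagen, did not pass: Mmp2 had an average difference of -0.11 (95% interval -0.33 to 0.11) and Mmp9, above background on 12 of 18 dexamethasone and 11 of 18 vehicle arrays, 0.06 (-0.13 to 0.24). Mmp14, the membrane-type enzyme that activates Mmp2, had -0.03 (-0.26 to 0.20). Mmp24, the highest in the group, had 0.28 (-0.02 to 0.58, adjusted p = 0.28). With the replicate number as a block Mmp24 passed upward (adjusted p = 0.0013), as did Mmp17 (0.19, adjusted p = 0.038). Mmp15 passed downward with the block (-0.33, adjusted p = 0.00016). Mmp12, the macrophage elastase, had 6.66, 5.99, 6.49 and 6.67 on the dexamethasone arrays and 5.80, 6.58, 6.56 and 6.70 on the vehicle arrays of 0.25 h and 1 h, and 6.67 on vehicle 12 h replicate 1, the arrays with the high microglia marker sums; the part of those cells in its level was not tested.

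The inhibitors split into a pair that rose and a pair that did not pass without the replicate block. Timp4 had 10.64 and 10.87 with dexamethasone at 12 h against 9.09 and 8.79 with vehicle. At 18 h it had 11.14 and 11.11 with dexamethasone and 9.29 and 9.04 with vehicle, and at 24 h 10.89 and 10.22 with dexamethasone and 8.66 and 8.82 with vehicle. The treatments were apart at every time from 4 h on. The differences of Timp4 were 1.81, 1.97 and 1.81 (SE 0.39 each, adjusted p = 0.0045, 0.0023 and 0.0048), or 3.51-fold at 12 h and 3.91-fold at 18 h, and 0.95 on average (SE 0.13, adjusted p = 8.8e-06). The 12 h call ended without dexamethasone 12 h replicate 2 (1.70), the 18 h call without vehicle 18 h replicate 2 (1.84) and the 24 h call without dexamethasone 24 h replicate 1 (1.48) or vehicle 24 h replicate 1 (1.73).

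Timp3, which binds to the matrix and also inhibits Adamts and Adam enzymes, rose too, and passed from 6 h on. It had 14.84 and 14.89 with dexamethasone at 6 h against 14.15 and 14.13 with vehicle, and 14.37 and 14.34 with dexamethasone at 18 h against 13.47 and 13.62 with vehicle. The differences of Timp3 were 0.73, 0.87, 0.81 and 0.66 at 6, 12, 18 and 24 h (SE 0.17 each, adjusted p = 0.021, 0.0022, 0.0052 and 0.026), and 0.46 on average (SE 0.06, adjusted p = 2.1e-06). Its 6 h call ended without any of the 4 arrays of that time (0.70 to 0.75), the 12 h call without vehicle 12 h replicate 2 (0.62), the 18 h call without either dexamethasone array (0.79 and 0.82) or vehicle replicate 1 (0.73), and the 24 h call without dexamethasone replicate 2 (0.51) or either vehicle array (0.65 and 0.68). Timp2 had an average difference of -0.05 (95% interval -0.18 to 0.09). Timp1, often induced by cytokines, had -0.18 (-0.53 to 0.17), which passed with the replicate number as a block (adjusted p = 0.041). At 6 h Timp1 had 9.60 and 9.83 with dexamethasone and 10.83 and 10.34 with vehicle (-0.87, not past the threshold).

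**Figure D2:**
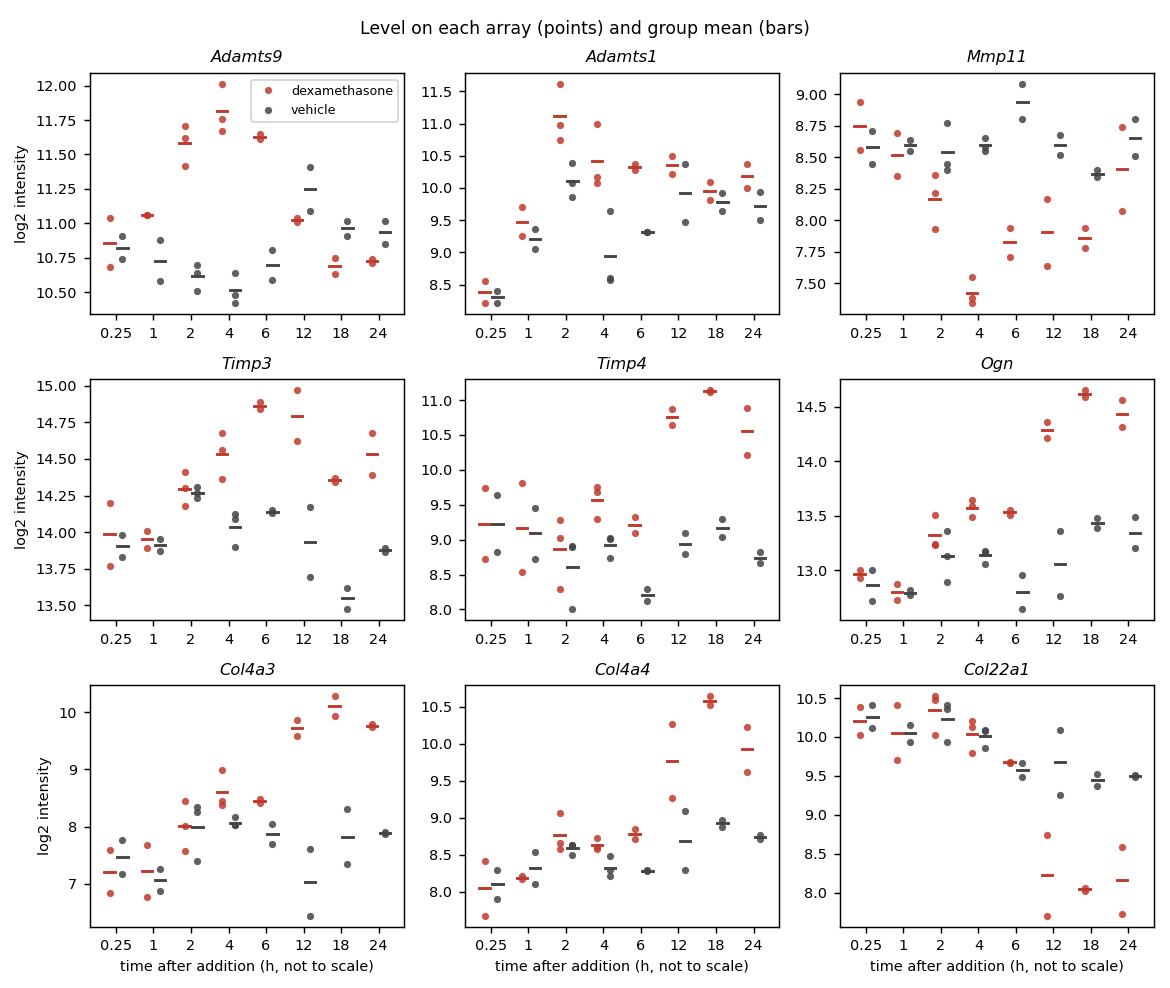
Log2 intensity (y axis) of 9 members on each array by time in hours (x axis, categories not to scale); red points are dexamethasone arrays, dark points vehicle arrays and short bars group means (2 arrays per group, 3 at 2 h and 4 h). Adamts9, Adamts1 and Mmp11 separate by 4 h, while Timp4, Ogn, Col4a3, Col4a4 and Col22a1 separate most at 12 to 24 h.

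**Figure D3:**
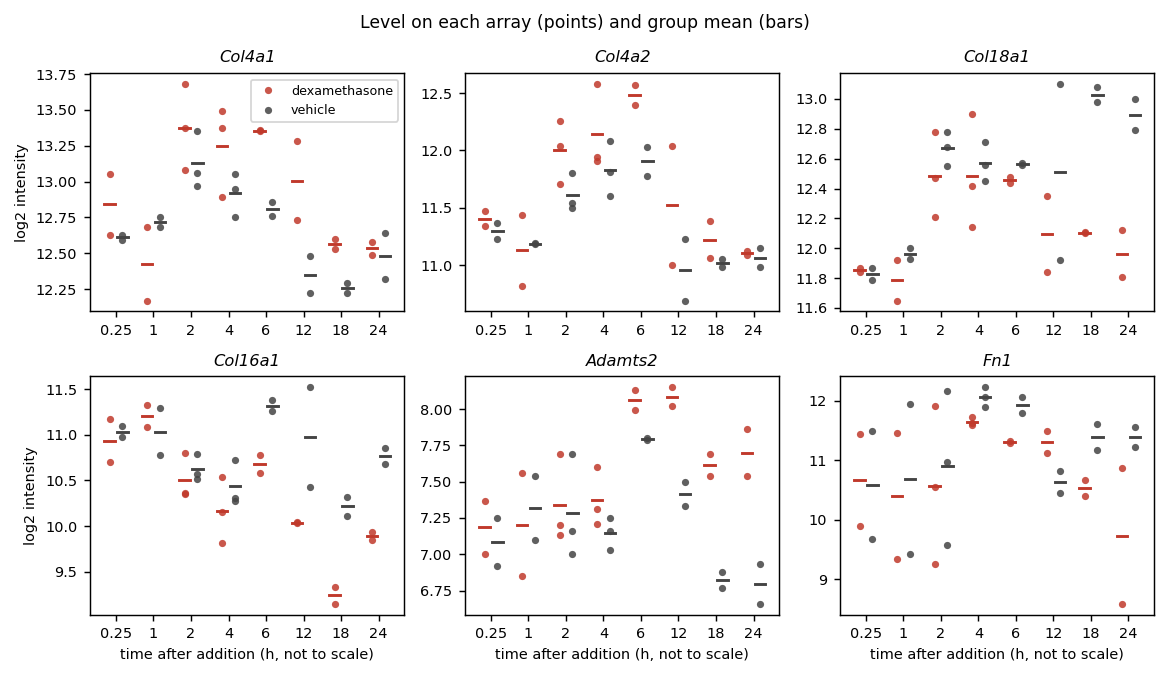
Log2 intensity (y axis) of 6 further members on each array by time in hours (x axis, categories not to scale), drawn in the same way, with dexamethasone in red and vehicle in dark points. Col18a1 and Col16a1 lie lower with dexamethasone at 18 h and 24 h and Adamts2 higher, Col4a1 and Col4a2 differ less, and the replicates of Fn1 lie more than 1 log2 unit apart at 0.25 h, 1 h, 2 h and, with dexamethasone, 24 h.

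By time, no member passed at 0.25 h or at 1 h in the limma fit. At an unadjusted p under 0.05 there were 0 members at 0.25 h and 1 at 1 h. Over all genes 0% were higher and 0% lower at 0.25 h, and 0.063% higher and 0.00485% lower at 1 h. At 2 h 1 member rose (0.596% of all genes rose and 0.126% fell), at 4 h 2 rose and 1 fell (1.55% and 0.814% of all genes), and at 6 h 3 rose and 1 fell (1.4% and 0.683%). At 12 h 6 rose and 3 fell (2.21% and 3.48% of all genes), at 18 h 5 rose and 3 fell (1.66% and 1.97%), and at 24 h 6 rose and 2 fell (1.84% and 2.03%). At 2 h and 4 h same-numbered arrays of the treatments deviated together; with the replicate number as a block 2 members passed at 2 h, where 1.92% of all genes did, and 9 at 4 h, where 6.47% did, among them all those called without the block. The members added by the block were Adamts1 at 2 h and, at 4 h, Timp3 (0.49), Timp4 (0.65), Adamts15 (0.63), Adamts4 (-0.72), Adamts18 (-0.52) and Adamts6 (-0.47). At 12 h, where 2 pairs are too few for that check (correlation 0.515), 26 members passed with the block and 18.6% of all genes did. The 6 h count was 1 or 2 without any 1 array of that time; the 18 h count was 4 or 5 and the 24 h count 2 to 4 in the same way. All 9 calls at 12 h ended when the 12 h arrays were fitted alone, where 0.121% of all genes passed; without single arrays, those of Ogn and Col4a3 remained.

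**Figure D4:**
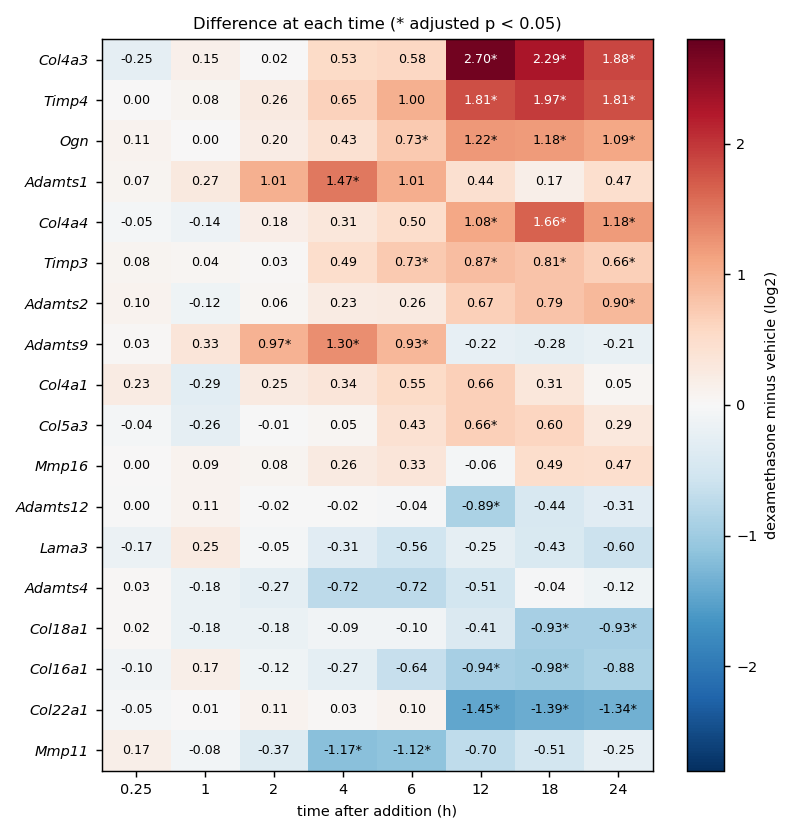
Log2 difference, dexamethasone minus vehicle (colour and number), for the 18 members that passed any test (rows, ordered by average difference) at each of the 8 times in hours (columns); stars mark an adjusted p under 0.05. Stars stand at 2, 4 and 6 h for Adamts9, at 4 h for Adamts1, at 4 h and 6 h for Mmp11 and at 12 to 24 h for Col4a3, Timp4, Col4a4 and Col22a1, and none stands at 0.25 h or 1 h.

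The change of response with time was tested as the mean response at 12, 18 and 24 h minus that at 1, 2 and 4 h. It was positive for 7 members and negative for 3 (1.87% and 3.02% of all genes). Positive were Col4a3 (2.06, SE 0.30), Timp4 (1.54, SE 0.30), Col4a4 (1.19, SE 0.22), Ogn (0.95, SE 0.14), Adamts2 (0.73), Col5a3 (0.59) and Timp3 (0.59); negative were Col22a1 (-1.44, SE 0.24), Adamts9 (-1.10, SE 0.13) and Col16a1 (-0.86, SE 0.21). That of Adamts2 ended without dexamethasone 1 h replicate 1 (0.61), and that of Col5a3 without dexamethasone 18 h replicate 2 (0.55), vehicle 18 h replicate 2 (0.53) or dexamethasone 24 h replicate 1 (0.50). The 1 h arrays differ from the later ones in their microglia marker sums; with 2 h and 4 h alone as the early times, 6 members stayed positive and 2 negative in an alternative added after the marker sums were seen, Col5a3 (0.50) and Col16a1 (-0.73) no longer passing. An F-test of equal response at all 8 times, which was passed by 2.74% of all genes, was passed by Adamts9, Col4a3, Ogn, Col22a1, Col4a4 and Mmp11.

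In the vehicle arrays alone, levels varied over the series as well. The range of the 8 vehicle group means was 0.23 to 2.08 log2 units per member with a median of 0.87, and exceeded 1 for 29 of the 77. Timp1 varied most, with a vehicle mean of 8.51 at 18 h and 10.58 at 6 h, and Adamts1 had a vehicle mean of 8.31 at 0.25 h and 10.11 at 2 h. Vehicle arrays of different times may also be different cultures, and the part of time and culture in these levels cannot be told apart.

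Other genes of the matrix were taken from lists by function, and their average differences were read beside the all-gene percentages given above. Of 15 genes for collagen processing and crosslinking 2 rose and 0 fell: P4ha2, a prolyl hydroxylase subunit (0.50, adjusted p = 0.0056), and Lox, the crosslinking lysyl oxidase (0.47, adjusted p = 0.0049). Lox was also higher at 12 h (1.15) and 24 h (1.45). Of 15 integrins, the matrix receptors, Itgb1, the shared beta 1 chain (0.49, adjusted p = 0.0068), and the dim Itga9 (0.23, adjusted p = 0.047) rose. Of 12 genes of the TGF-beta pathway, a regulator of matrix synthesis, the ligand Tgfb2 rose (0.38) while the target Tgfbi (-0.36) and the mediator Smad2 (-0.23) fell.

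Brain proteoglycans and hyaluronan genes gave 0 risers and 3 fallers of 22: the syndecans Sdc1 (-0.48) and Sdc3 (-0.42) and the nidogen Nid2 (-0.24), a link between laminin and type IV collagen. Sdc1 was dim, with a mean log2 level of 5.86 with dexamethasone and 6.34 with vehicle. The background level on that scale was 5.83 to 5.84. Among 14 genes of the plasminogen system and other protease control 4 rose and 3 fell. Serpina3n, a secreted protease inhibitor known from reactive astrocytes, rose most in that list (0.96, adjusted p = 1.8e-09) and its difference was 1.28 at 4 h and 2.16 at 24 h. Adam12 (0.37), Spock2 (0.34) and Adam9 (0.29) rose as well. Plaur, the urokinase receptor (-0.43), Plat, tissue plasminogen activator (-0.23), and Adam17 (-0.19) fell. Of 17 matricellular and related genes, Eln, which encodes elastin, rose (0.58), and Tnfrsf11b, the decoy receptor osteoprotegerin (-1.02, adjusted p = 2e-10), Wisp1 (-0.42) and Spp1, osteopontin (-0.24), fell.

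Other probes of the same genes gave a partial check. Of the 17 members called on average, 8 had another probe that passed the background filter; the next brightest one had the same sign in all 8 and passed the test in 3, those of Timp3 (0.62), Ogn (0.99) and Col18a1 (-0.36). The third Ogn probe passed too (0.83), and the third Timp3 probe, near background, gave 0.05; the third Adamts2 probe passed (0.32). The next brightest probes of Col4a4 (0.47, adjusted p = 0.14), Adamts1 (0.57), Adamts2 (0.25), Mmp16 (0.16) and Adamts9 (0.15) did not pass. Fbn1, Col6a2 and Adamts20, which did not pass by the brightest probe, passed by the next one (0.45, 0.31 and -0.26). Those next probes of Col6a2 and Adamts20 were near background, with mean intensities of 96.7 and 94.8. Col4a3, Timp4 and Mmp11 had only 1 probe.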

How the data were processed

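The deposited series table holds 1 linear intensity per probe for 45281 probes of Illumina BeadChips on 36 arrays, read with GenomeStudio per the submitters' processing notes. The authors had quantile normalized these intensities: beyond the 10 lowest values, sorted columns differ by at most 0.5. A second deposited table has 36 intensity columns that match no sample label; only its gene symbols were used. Intensities were corrected by normexp (offset 16) and put on the log2 scale. Background was the 99th percentile (91.7) of the spread below the mode (70.2), mirrored; a probe was kept if 2 or more arrays exceeded it. Array number and signal over background limit precision. Each symbol kept its brightest probe.

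All arrays were fitted with limma 3.58.1 (R 4.3.3) as 16 group means, with Benjamini-Hochberg adjustment over 20633 genes; calls need an adjusted p under 0.05. The fit was run on simulated data with independent noise on each array and an effect equal at all times. That simulation does not cover arrays that deviate together. Same-numbered arrays deviated together at 2 h (correlations 0.677 to 0.86) and 4 h (0.355 to 0.573), which pairs them there. The other times have 2 pairs, too few for this check; their correlations were 0.8 at 0.25 h, 0.735 at 1 h, 0.515 at 12 h and -0.132 to 0.031 at 6, 18 and 24 h. The text names every member called, the extremes of each role group, the members at the intensity threshold, genes of the wider lists called on average (at most 6 per list) and 3 receptor targets. Members and lists were chosen with earlier results of these data known; members added by the block or by another probe, and others given as examples, were named after their values were seen. Alternatives were other background corrections and filters, cyclic loess, array weights, the replicate block, other probes and leaving out arrays. Promoters came from RefSeq (GRCm38.p6); all 77 symbols matched. Figures used matplotlib 3.10.9 (Python 3.11.15).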

Additional observations from a re-analysis of the deposited data

Results flagged for a closer look

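The following members differed in their response between times, by a test of the difference itself; p-values are adjusted over all genes. In the F-test across the 8 times (7 degrees of freedom) the adjusted p was 9.07e-06 for Adamts9, 0.00126 for Col4a3, 0.00364 for Ogn, 0.0134 for Col22a1, 0.0269 for Col4a4 and 0.0273 for Mmp11. Comparing 12, 18 and 24 h with 1, 2 and 4 h, the response was more positive at the later times by 2.06 log2 units for Col4a3, 1.54 for Timp4, 1.19 for Col4a4, 0.95 for Ogn, 0.73 for Adamts2, 0.59 for Timp3 and 0.59 for Col5a3, and more negative by -1.44 for Col22a1, -1.10 for Adamts9 and -0.86 for Col16a1. The groups hold 2 or 3 arrays, too few to tell which array of a group is outlying. In fits without single arrays, the later against earlier call of Adamts2 ended without 1 array and that of Col5a3 without any one of 3. Those of Col5a3 and Col16a1 also ended without the 0.25 h and 1 h arrays, with 2 h and 4 h as the early times.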

How the results depend on the processing

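Under no correction, a larger normexp offset, cyclic loess, either filter on dim probes and the added fit without the 0.25 h and 1 h arrays, each count of called members stayed within 1.5 times its value, except that 5 members passed at 4 h with only probes above background on all 36 arrays. With array weights 7 passed at 4 h, 19 at 6 h, 2 at 12 h and 25 at 18 h (4.44%, 11.2%, 1.42% and 18.6% of all genes). With the arrays of a time fitted alone 0 passed at 2 h, 18 at 6 h, 0 at 12 h and 25 at 18 h (0.233%, 9.81%, 0.121% and 16.7% of all genes); the cause was not tested. With the replicate number as a block, 36 passed on average (24.2% of all genes), Col4a2, Fn1, Lama2, Lama5, Mmp24 and Timp1 among them. By time, with the share of all genes in brackets, 2 passed at 2 h (1.92%), 9 at 4 h (6.47%) and 7 at 6 h (5.25%). Later, 26 passed at 12 h (18.6%), 12 at 18 h (9.34%) and 17 at 24 h (11.3%). In late minus early 20 passed (13.6%) and in the F-test 15 (10.2%). Times other than 2 h and 4 h have 2 pairs each, too few for the pairing check. Their same-number correlations were 0.8 at 0.25 h, 0.735 at 1 h, 0.031 at 6 h, 0.515 at 12 h, -0.046 at 18 h and -0.132 at 24 h. Leaving out 1 array at a time gave 14 to 20 calls on average, 0 at 0.25 h and 1 h, 1 at 2 h, 3 to 5 at 4 h, 1 to 4 at 6 h, 7 to 11 at 12 h, 4 to 8 at 18 h, 2 to 9 at 24 h, 9 to 12 in late minus early and 5 to 7 in the F-test. The 5 calls at 4 h came without either vehicle 12 h array. Of the calls made, 13 of 17 on average, all 4 at 2 h and 4 h together and 0 of the 4 at 6 h held without each array in turn; this was so for 2 of the 9 called at 12 h, 3 of the 8 called at 18 h and 2 of the 8 called at 24 h. The average difference of Bgn, near 0, ran from -0.063 without vehicle 12 h replicate 1 to 0.02 without vehicle 12 h replicate 2 and also turned positive without vehicle 2 h replicate 1 (0.004) and dexamethasone 24 h replicate 2 (0.007). Of the other values named per gene, 2874 repeats kept direction and side of the threshold, 222 lost the threshold and 22 gained it. Groups of 2 arrays and dim probes (16 members not above background on all arrays) limit what could pass.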
